A study of Mus musculus with 2 samples.

Results

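The genes described here carry interferon signals across the macrophage membrane and shut them off again: the receptor chains Ifnar1, Ifnar2, Ifngr1 and Ifngr2, the Janus kinases Jak1, Jak2 and Tyk2, and the feedback inhibitors Socs1 and Socs3. They were taken by gene symbol, and all 9 were found among the 16614 genes listed in both libraries. A library came from Foxo3 KO mice, which lack the forkhead transcription factor FoxO3, and the other from WT mice, both of strain C57BL/6. Bone marrow flushed from femur and tibia was grown for 3 days with M-CSF, the growth factor of macrophages, and then for 2 days with RANKL, the cytokine that turns macrophages into osteoclasts, so both libraries describe RANKL-treated cells. The sources used here do not state the age or number of the animals, any pooling, or the design of the deleted allele. The series, by its title, concerns FoxO3 and an isoform of it as an inhibitor of osteoclasts. Poly-A RNA was sequenced, and each genotype is represented by 1 library, so no value below has a replicate error and each difference describes these libraries.

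Type I interferons bind a receptor made of IFNAR1 and IFNAR2, which carry the kinases TYK2 and JAK1, and interferon gamma binds IFNGR1 and IFNGR2, which carry JAK1 and JAK2. The activated kinases phosphorylate STAT factors, which switch on interferon-stimulated genes, among them Socs1. SOCS1 and SOCS3 bind the kinases or receptors and recruit a ubiquitin ligase through their SOCS box, which closes the loop. In osteoclast precursors, interferon gamma and interferon beta are known to restrain differentiation driven by RANKL, and interferon beta is known as a feedback signal that RANKL itself induces.

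Foxo3, the deleted gene, stood at 0.548 FPKM in the Foxo3 KO library and 10.3 FPKM in the WT library. FPKM, fragments scaled to transcript length and library size, is taken as the unit from the values themselves and is corrected for length, so levels of different genes may be compared. Osteoclast markers were abundant in both libraries: Acp5, Ctsk and Mmp9 stood at 8636, 6862 and 5815 FPKM in the Foxo3 KO library and at 7737, 6106 and 5009 FPKM in the WT library. Of the 10 osteoclast markers 7 were higher and 3 lower in the Foxo3 KO library, 6 and 4 after trimmed-mean scaling. Itgb3, an integrin chain and the marker farthest from 0, stood at 83.2 FPKM in the Foxo3 KO and 101.3 FPKM in the WT library. The 10 macrophage markers looked at summed to 8459 FPKM in the Foxo3 KO library and 10516 FPKM in the WT library, and 9 of the 10 were lower in the Foxo3 KO library, all 10 after either scaling between libraries. None of the 10 was at 0. Lyz2, a lysozyme gene, made up most of both sums, at 5674 FPKM in the Foxo3 KO and 7501 FPKM in the WT library, whereas Csf1r, the receptor for M-CSF, stood at 695 and 697 FPKM in these libraries. Cd36, the macrophage marker farthest from 0, stood at 31.9 FPKM in the Foxo3 KO and 84.7 FPKM in the WT library. It was the 1 macrophage marker of the 10 that passed the 2-fold rule given below. The 9 markers of T, NK and B cells summed to 6.69 FPKM in the Foxo3 KO and 7.07 FPKM in the WT library, nearly all of it Cd4, with Cd3e and Nkg7 listed at 0 in both. Neutrophil markers were present in both, with a sum over 8 genes of 154.5 FPKM in the Foxo3 KO and 158.3 FPKM in the WT library. S100a8 led them, at 67.0 FPKM in the Foxo3 KO and 70.2 FPKM in the WT library. Retnlg, listed at 0 in the Foxo3 KO and 1.01 FPKM in the WT library, was the 1 neutrophil marker past the 2-fold rule. A listed 0 can also be a failed estimate. Of the markers of erythroid cells and megakaryocytes, Pf4, which encodes a chemokine of platelets, stood at 26.2 FPKM in the Foxo3 KO and 55.7 FPKM in the WT library, or 47.1% of the WT value. The 6 stromal markers summed to 6.74 FPKM in the Foxo3 KO and 7.31 FPKM in the WT library, and the 6 dendritic markers to 35.3 FPKM in the Foxo3 KO and 39.1 FPKM in the WT library. Nearly all of the dendritic sum was Clec10a, at 33.2 FPKM in the Foxo3 KO and 37.4 FPKM in the WT library. Zbtb46, the only other dendritic marker to reach 1 FPKM, was higher in the Foxo3 KO library, at 1.48 FPKM against 1.14 FPKM in the WT library. In bulk RNA, fewer cells of a type and less RNA per cell cannot be told apart, and the part of these marker differences in the values below was not tested.

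Differences were measured as the log2 ratio, log2(FPKM + 1) in the Foxo3 KO library minus the same in the WT library, and a gene was called different at 2-fold or more on this scale. A gene counted as measured if either library had it at 1 FPKM or above. Of the 9 genes 8 were measured and 0 were called, against 0.32% of the 10003 measured genes of the series. At 1.5-fold the count was also 0, against 1.35% of measured genes. Among the 8 measured genes 3 were higher and 5 lower in the Foxo3 KO library, and the median log2 ratio was -0.064. Across all measured genes 57.6% were higher, 42.4% were lower and the median was 0.025. Socs3 was measured through the Foxo3 KO library alone, and Socs1 stayed under 1 FPKM in both. With WT values under 1 FPKM, neither gene could have been called lower on this scale. The 9 log2 ratios ran from -0.14 for Ifnar1 to 0.16 for Tyk2, a range that 27.0% of measured genes exceeded in absolute value.

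**Figure D1:**
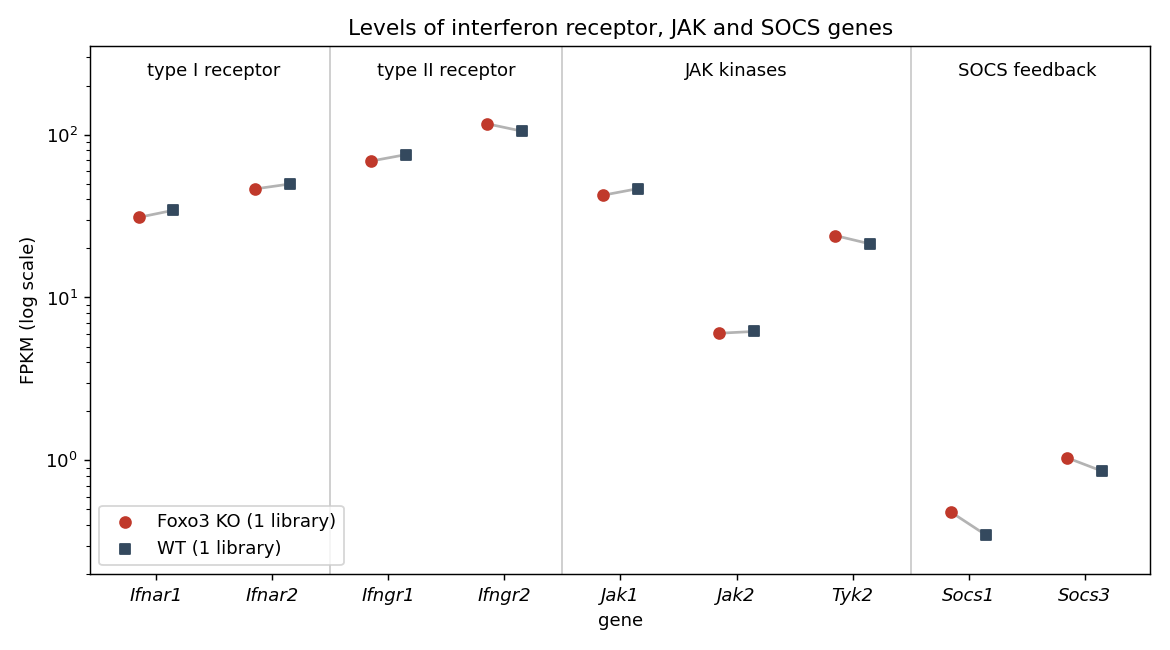
Level of each gene in FPKM on a log axis, with 1 point per library: circles for Foxo3 KO, squares for WT, joined by a line. The genes keep the same order of level in both libraries, from Ifngr2 at 116 FPKM in the Foxo3 KO and 105 FPKM in the WT library down to Socs1 at 0.480 and 0.347 FPKM.

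The order of the 9 levels was the same in both libraries: Ifngr2, Ifngr1, Ifnar2, Jak1, Ifnar1, Tyk2, Jak2, Socs3 and Socs1, from high to low. With 1 library a group, no spread exists to say which neighbours in that order differ. The highest gene stood 243-fold above the lowest in the Foxo3 KO library and 302-fold in the WT library. Ifngr2 stood above 95.7% of all listed genes in the Foxo3 KO library and above 95.3% in the WT library. Ifnar1, the lowest of the receptor chains, stood above 83.3% in the Foxo3 KO and 85.0% in the WT library. Socs1 stood above 36.5% in the Foxo3 KO and 35.1% in the WT library.

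Both chains of the type I interferon receptor were slightly lower in the Foxo3 KO library. Ifnar1 (ENSMUSG00000022967.13, chromosome 16, 91485238 to 91507441, plus strand), the chain that carries TYK2, stood at 31.0 FPKM in the Foxo3 KO library and 34.3 FPKM in the WT library, a log2 ratio of -0.14. Ifnar2 (chromosome 16, 91372783 to 91405589, plus strand), the chain that holds most of the affinity for ligand and carries JAK1, stood at 46.4 FPKM in the Foxo3 KO library and 49.7 FPKM in the WT library, a log2 ratio of -0.098. The Foxo3 KO value was thus 90.4% of the WT value for Ifnar1 and 93.3% for Ifnar2. The ratio of Ifnar2 to Ifnar1 was 1.49 in the Foxo3 KO and 1.45 in the WT library, so the proportion of the chains was nearly alike. Ifnar2 is known to make membrane-bound and soluble forms, which a value per gene does not separate, and its exons overlap those of the gene model Gm21970.

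The chains of the interferon gamma receptor differed in direction, also after either scaling. Ifngr1 (chromosome 10, 19591949 to 19610229, plus strand), which binds the ligand and carries JAK1, stood at 68.7 FPKM in the Foxo3 KO library and 75.3 FPKM in the WT library, a log2 ratio of -0.13. Ifngr2 (chromosome 16, 91547072 to 91565623, plus strand), the accessory chain that brings JAK2, stood at 116 FPKM in the Foxo3 KO library and 105 FPKM in the WT library, a log2 ratio of 0.15. Ifngr2 was the more abundant chain in both libraries, at 1.69 times Ifngr1 in the Foxo3 KO and 1.39 times in the WT library. The ratio of the chains was 1.22 times as high in the Foxo3 KO library. Summed over the 4 receptor chains, the level was 262.6 FPKM in the Foxo3 KO and 264.3 FPKM in the WT library.

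Of the kinases, Jak1 was lower, Tyk2 higher and Jak2 nearly level in the Foxo3 KO library. Jak1 (chromosome 4, 101152367 to 101265282, minus strand), which serves both receptors, stood at 42.4 FPKM in the Foxo3 KO library and 46.6 FPKM in the WT library, a log2 ratio of -0.13. Tyk2 (chromosome 9, 21104068 to 21131243, minus strand) stood at 24.0 FPKM in the Foxo3 KO library and 21.3 FPKM in the WT library. Without scaling, its log2 ratio of 0.16 was the farthest from 0 of the 9 genes. After either scaling it was 0.14, while Ifnar1 stood farther from 0 at -0.17. Jak2 (chromosome 19, 29251828 to 29313080, plus strand), which also serves receptors of growth factors such as GM-CSF, stood at 6.03 FPKM in the Foxo3 KO library and 6.18 FPKM in the WT library, a log2 ratio of -0.031. Jak1 was the most abundant of these kinases, at 58.6% of the sum of the 3 in the Foxo3 KO and 62.9% in the WT library. Jak1 stood at 1.77 times Tyk2 in the Foxo3 KO library and at 2.18 times in the WT library. Jak3, the kinase of receptors with the common gamma chain, stood at 7.29 FPKM in the Foxo3 KO and 6.83 FPKM in the WT library. Exons of Tyk2 overlap those of the antisense model 1700084C06Rik, and exons of Jak1 overlap those of Raver2, which was listed at 0.014 FPKM in the Foxo3 KO and 0.030 FPKM in the WT library. The sources used here do not state whether counting used strand.

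**Figure D2:**
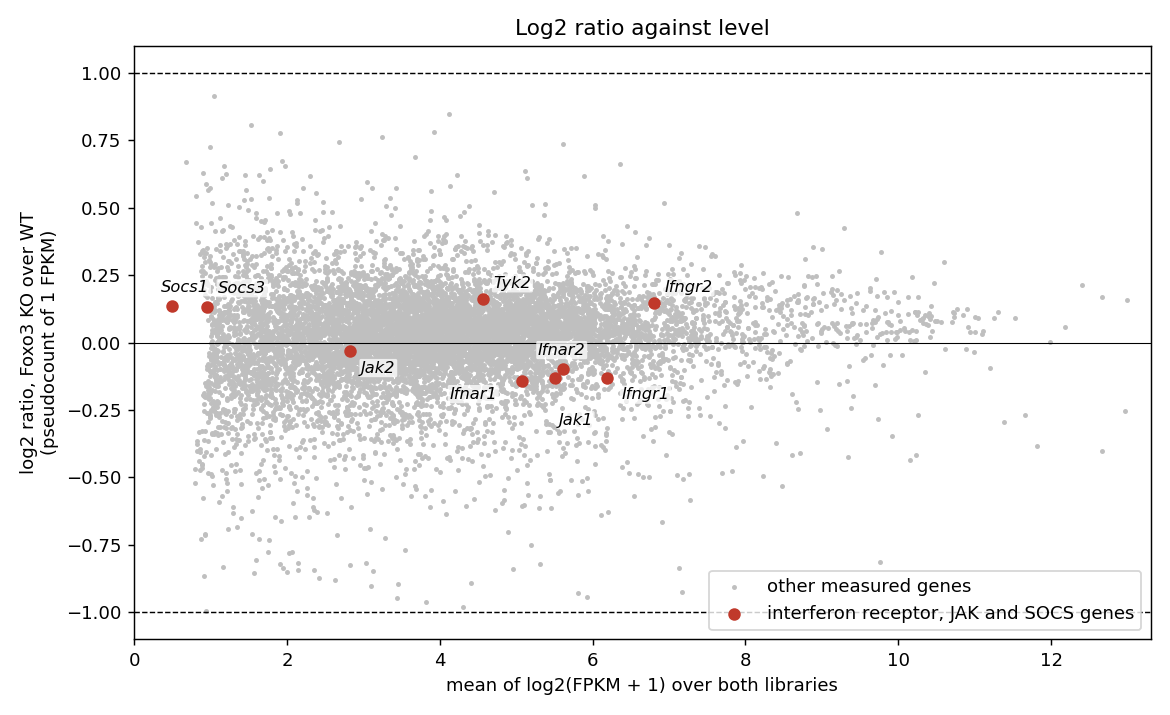
Log2 ratio of Foxo3 KO over WT (pseudocount of 1 FPKM) against the mean of log2(FPKM + 1), for measured genes within 2-fold (grey) and the 9 interferon receptor, JAK and SOCS genes (red), with dashed lines at 2-fold. All 9 red points lie between -0.14 and 0.16, and Socs1, which was not measured, lies left of the grey points.

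Set against genes of like level, none of the differences was rare in size. The median absolute log2 ratio of the 8 measured genes was 0.131, above the 0.094 of all measured genes. For each of the 9 genes, the 500 other genes nearest in mean level were taken, and the standard deviation (SD) of their log2 ratios was computed as a description of how far such genes varied between these libraries. Without scaling between libraries, the log2 ratio in absolute value was smaller than that SD for 8 of the 9. This is also the case for most genes of like level. Tyk2 was the exception, at 0.16 against an SD of 0.15, and 20.4% of its 500 neighbours in level lay at least as far from 0. For the other measured genes that share ran from 28.6% for Ifnar1 to 82.0% for Jak2. The like-level genes were not centred on 0: their median was 0.029 for Tyk2 and 0.034 for Jak1. After either scaling Tyk2 stood at 0.14, under its unscaled SD, and Jak1 at -0.16, past its unscaled SD of 0.15. Ifnar1 then stood at -0.166 against an unscaled SD of 0.165. Which genes pass the SD thus depends on the scaling.

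The feedback genes Socs1 and Socs3 were the lowest of the 9 and were both higher in the Foxo3 KO library by a small absolute amount. Socs1 (chromosome 16, 10782240 to 10785536, minus strand), which blocks the catalytic site of JAK kinases, stood at 0.480 FPKM in the Foxo3 KO library and 0.347 FPKM in the WT library. Its log2 ratio was 0.14, and 0.47 on the plain ratio without a pseudocount. Socs3 (chromosome 11, 117966079 to 117970047, minus strand), best known as an inhibitor of IL-6 family and G-CSF receptor signals, stood at 1.04 FPKM in the Foxo3 KO library and 0.858 FPKM in the WT library. Its log2 ratio was 0.13, and 0.27 on the plain ratio. At these levels such differences were common: on the plain scale 36.3% of 499 genes of like level were at least as far from 0 as Socs1, and 49.8% of 500 as far as Socs3. Read totals are not given, and depth limits both values. Among 2050 genes with a longest transcript within 10% of that of Socs1, the 1st percentile of values above 0 was 0.00921 FPKM in the Foxo3 KO and 0.0127 FPKM in the WT library. Socs1 lay 52.1 times above that lowest level in the Foxo3 KO and 27.3 times above it in the WT library, so it was detected in both, more finely in the Foxo3 KO library.

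The stretches before the RefSeq starts of both SOCS genes are shown because each holds a letter pattern of the pathway they restrain. The patterns were looked for in RefSeq windows (GRCm38.p6) from 250 bases before to 50 bases after each RefSeq start: the forkhead pattern GTAAACA, the STAT pattern TTCNNNGAA, known as GAS, and the interferon response pattern, a pair of GAAA blocks with any 2 bases between them. The forkhead and interferon response patterns were also read on the opposite strand, while GAS reads the same on both. For Socs1 this start, at 10785536, is also the 5′ end of the gene in GENCODE. For Socs3 it lies at 117969366, which is 180 bases before the 5′ end of the coding transcript in GENCODE (117969186) but 681 bases inside the extent given above, whose 5′ end belongs to a transcript annotated as non-coding. The Socs3 stretch is thus within that wider extent, and its distances hold for the RefSeq start only. Capitals mark the matches, and each sequence runs from 250 bases before the start to the base before it.
Socs1 chr16:10785537-10785786, minus strand: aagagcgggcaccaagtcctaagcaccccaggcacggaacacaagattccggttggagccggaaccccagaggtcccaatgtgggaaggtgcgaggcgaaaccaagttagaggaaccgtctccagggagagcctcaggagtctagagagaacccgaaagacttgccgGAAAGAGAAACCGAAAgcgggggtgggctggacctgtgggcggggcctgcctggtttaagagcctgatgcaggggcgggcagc
Socs3 chr11:117969367-117969616, minus strand: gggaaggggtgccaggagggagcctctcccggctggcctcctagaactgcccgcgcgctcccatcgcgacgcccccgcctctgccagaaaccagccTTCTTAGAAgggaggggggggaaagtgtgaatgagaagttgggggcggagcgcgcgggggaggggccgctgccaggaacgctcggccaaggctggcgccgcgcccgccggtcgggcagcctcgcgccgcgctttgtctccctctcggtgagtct

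The Socs1 window held the interferon response pattern at 83 and again at 77 bases before its RefSeq start, and these matches overlap. Of 32851 windows of the same length 3.44% held that pattern, and Socs1 was the 1 window of the 9 that did. The Socs3 window held the GAS pattern 154 bases before its RefSeq start. That pattern was in 8.3% of all windows and in 3 of the 9, the others being the type I receptor chains. In the following stretches, 20 bases flank the match on each side, and that of Ifnar1 runs across the RefSeq start (91485215), which is 23 bases before the GENCODE start given above.
Ifnar2 chr16:91372549-91372597, plus strand: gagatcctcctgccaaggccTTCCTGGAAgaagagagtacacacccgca
Ifnar1 chr16:91485190-91485238, plus strand: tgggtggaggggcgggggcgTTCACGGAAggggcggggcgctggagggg

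The forkhead pattern, which was in 3.65% of all windows, was in 0 of the 9. This says only that these letters are not in these windows. The 9 windows were rich in G and C, from 57.0% for Ifnar2 to 81.0% for Jak2, against a median of 52.7% over all windows.

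The genes of 3 of the 4 receptor chains are neighbours. Ifnar2, Il10rb, Ifnar1 and Ifngr2 lie in this order and on the same strand within 193 kb of chromosome 16 (91372783 to 91565623). Il10rb, the receptor chain shared by IL-10 and type III interferons, stood at 132 FPKM in the Foxo3 KO library and 137 FPKM in the WT library, a log2 ratio of -0.054. It was thus higher than any of the 4 interferon receptor chains in both libraries. The cluster did not shift as a block: Ifnar2, Il10rb and Ifnar1 had log2 ratios below 0 and Ifngr2 one above 0. The 7 other measured genes within 150 kb of the cluster had log2 ratios from -0.28 to 0.16, with 2 higher and 5 lower in the Foxo3 KO library.

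**Figure D3:**
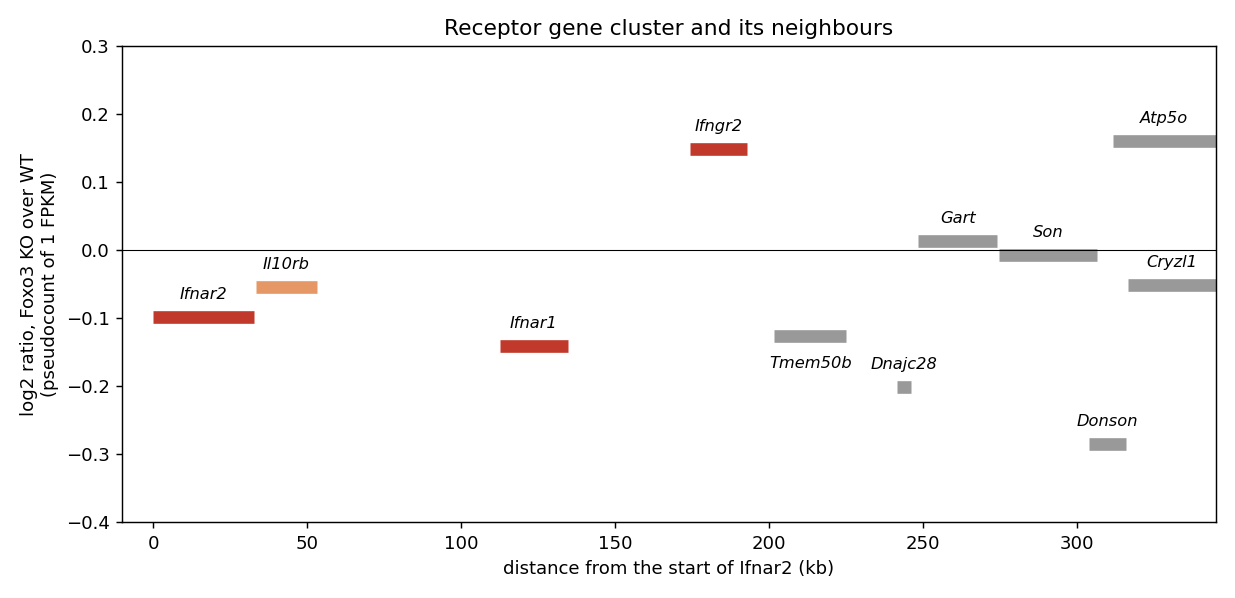
Log2 ratio of Foxo3 KO over WT (vertical axis, pseudocount of 1 FPKM) of measured genes in the receptor cluster of chromosome 16, drawn over their extent in kb from the start of Ifnar2 (Atp5o and Cryzl1 run past the right edge). Ifngr2 lies above 0 at 0.15, while Ifnar2, Il10rb and Ifnar1 lie between -0.14 and -0.054.

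No interferon gene looked at was listed above 0. All 12, among them Ifnb1, Ifng and several Ifna genes, were at 0 in both libraries, and a listed 0 can also be a failed estimate. Ifnlr1, the specific chain of the type III receptor, stood at 0.052 FPKM in the Foxo3 KO and 0.046 FPKM in the WT library.

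Among the remaining SOCS family genes, 4 of 6 were lower in the Foxo3 KO library and 0 were called, with a median log2 ratio of -0.10. Socs6 was the most abundant of the family, at 14.2 FPKM in the Foxo3 KO and 21.2 FPKM in the WT library. Its log2 ratio of -0.55 was farther from 0 than that of any of the 9 genes and opposite in direction to those of Socs1 and Socs3. It stood 13.7 times above Socs3 in the Foxo3 KO library and 24.7 times above it in the WT library. The 7 genes listed for the ubiquitin ligase of the SOCS box, not all of which encode its subunits, lay close to 0. All 7 were higher in the Foxo3 KO library, but only 4 of 7 after either scaling, and their median was 0.038. Elob and Eloc, the elongins that bind the SOCS box directly, stood at 165 and 53.4 FPKM in the Foxo3 KO library and at 164 and 48.9 FPKM in the WT library. Of 14 other inhibitors of the pathway 8 were higher and 6 lower, 7 each after either scaling. Their median was 0.014, and -0.011 after either scaling. Ptpn6, the phosphatase SHP-1, was the most abundant of them, at 213 FPKM in the Foxo3 KO and 188 FPKM in the WT library.

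**Figure D4:**
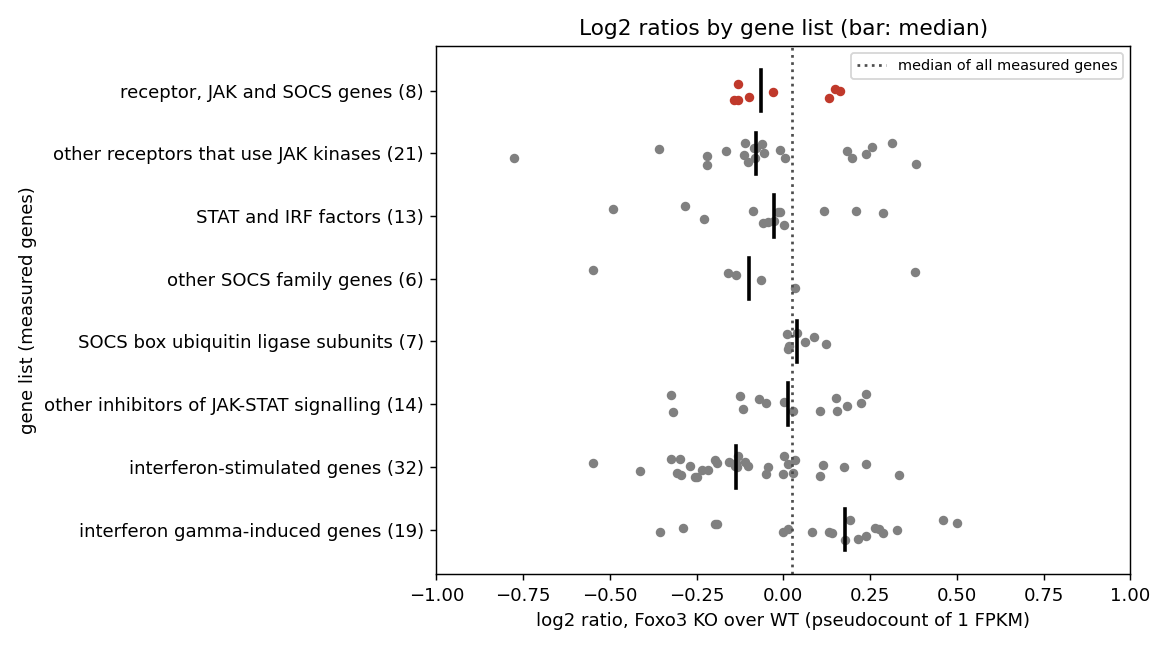
Log2 ratio of Foxo3 KO over WT (horizontal axis, pseudocount of 1 FPKM) for measured genes of the interferon receptor, JAK and SOCS set (red) and of related lists (grey), with the number of measured genes in brackets, a black bar at each median and a dotted line at the median of all measured genes. The receptor, JAK and SOCS genes span -0.14 to 0.16, and the interferon-stimulated and interferon gamma-induced lists have medians of -0.14 and 0.18.

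Below the kinases, 9 of 13 measured STAT and IRF genes were lower in the Foxo3 KO library, 10 of 13 after either scaling, with a median log2 ratio of -0.026 and 0 called. Irf8, a factor that keeps macrophages from becoming osteoclasts, stood at 20.3 FPKM in the Foxo3 KO and 29.0 FPKM in the WT library. Stat2, which acts downstream of the type I receptor, stood at 11.1 FPKM in the Foxo3 KO and 13.2 FPKM in the WT library. Irf1, a transcription factor known to be induced by interferon gamma, stood at 38.0 FPKM in the Foxo3 KO and 31.0 FPKM in the WT library. Of 32 interferon-stimulated genes 23 were lower and 9 higher, with a median of -0.14; after either scaling 25 were lower and 7 higher. Mx2, among the lower, was measured through the WT library alone. Of 19 measured genes known as induced by interferon gamma 14 were higher and 5 lower, with a median of 0.18; after either scaling 13 were higher and 6 lower. Iigp1, among the higher, was measured through the Foxo3 KO library alone. The 19 log2 ratios ran from -0.36 for Irgm2 to 0.50 for Ciita. Irgm2 stood at 6.96 FPKM in the Foxo3 KO and 9.18 FPKM in the WT library. Icam1, an adhesion molecule, stood at 74.4 FPKM in the Foxo3 KO and 59.1 FPKM in the WT library, and Psmb9, an immunoproteasome subunit, at 79.3 FPKM in the Foxo3 KO and 65.9 FPKM in the WT library. None of the genes on these lists was called, and Irf1 stands on more than 1 of the lists. Some of their genes also stand among the macrophage markers or the other inhibitors of the pathway. The 10 macrophage markers had a median log2 ratio of -0.23, and their part in these counts was not tested.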

How the data were processed

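RNA-seq values of 1 Foxo3 KO and 1 WT library were used as the authors deposited them, 1 value per gene symbol. The unit is not named: the deposited values were read as FPKM because they are not whole and the columns sum to 540601 (Foxo3 KO) and 530701 (WT). Every value carries an apparent constant of 0.000001, which was subtracted. Per the submitters' processing notes, TopHat, edgeR and mm10 were used, with no roles. The sources used here do not state the quantifier, annotation, read totals or scaling.

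The log2 ratio used a pseudocount of 1 FPKM, which understates differences of low genes, a minimum of 1 FPKM in 1 library, and a fixed 2-fold rule in place of a test. Genes and lists were chosen with earlier results of these data known. Of 227 list entries 222 matched directly and 3 through a RefSeq synonym. From each list the text could name the 3 genes farthest from a log2 ratio of 0, given 10 FPKM in either library. It could also name the 2 most abundant (3 for markers). Ifnb1, Ifng, Cd3e, Nkg7, Raver2, Mx2, Iigp1 and the neighbours in the cluster were named outside that rule, after their values were seen. So were Irgm2, Ciita, Il7r, Osm, Il27 and Retnlg. Exons and coordinates come from GENCODE M21 (mm10) and overlaps ignore strand. Alternatives were trimmed-mean scaling (30% of log ratios and 5% of levels trimmed from each end), centring on the median gene, other pseudocounts, minimums and thresholds, and the mean over a list. The steps were tested on simulated data. Python 3.11.15, numpy 2.4.6, pandas 2.3.3 and matplotlib 3.10.9 were used.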

Additional observations from a re-analysis of the deposited data

How the results depend on the processing

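None of the 9 genes passed 2-fold under trimmed-mean scaling, centring, either other pseudocount (0.25 or 5), no minimum or a 10 FPKM minimum, nor 1.5-fold at that threshold. For Socs1 and Socs3 this says little: with WT values under 1 FPKM, a pseudocount of 1 or 5 bars a 2-fold lower value. Both genes also fall out under the 10 FPKM minimum. All 45 recomputed log2 ratios of the 9 genes kept their sign, and pseudocounts could not have changed it. Without a pseudocount, an alternative chosen after seeing the data, the log2 ratio of Socs1 was 0.47, which follows from its low level. The median over the genes stayed below 0, between -0.114 under the 10 FPKM minimum and -0.011 as the mean over the genes. Over all measured genes, 12 were higher and 20 lower by 2-fold. Genes higher by the rule in force numbered 5 under the larger pseudocount, 5 under the 10 FPKM minimum and 41 at 1.5-fold. Genes lower by it numbered 39 under the smaller pseudocount, 6 under the larger and 94 at 1.5-fold. The construction of these settings implies such shifts. Under the 10 FPKM minimum the median of the remaining SOCS family was -0.55, which is Socs6 alone. Of 63 recomputed list values 61 kept their sign; the exceptions are the other inhibitors under both scalings. No paired analysis was possible because there is a single library per genotype, so none could be omitted either. Depth limits Socs1 and Socs3 most.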

Other observations

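Other receptors that signal through JAK kinases were lower in the Foxo3 KO library in 14 of 21 measured cases, 15 after either scaling, with a median log2 ratio of -0.080 and 0 called. Csf2ra, the GM-CSF receptor chain whose partner carries JAK2, stood at 156 FPKM in the Foxo3 KO and 125 FPKM in the WT library. Crlf2, the TSLP receptor chain, stood at 34.0 FPKM in the Foxo3 KO and 25.8 FPKM in the WT library. Il10ra, the IL-10 receptor chain that carries JAK1, stood at 16.4 FPKM in the Foxo3 KO and 19.3 FPKM in the WT library. Il7r, the farthest from a log2 ratio of 0 among the 21, stood at 2.19 FPKM in the Foxo3 KO and 4.47 FPKM in the WT library. The Foxo3 KO value was 49.0% of the WT value for Il7r, but its log2 ratio with the pseudocount was -0.78, so it was not called. The macrophage markers summed to 8459 FPKM in the Foxo3 KO and 10516 FPKM in the WT library, and their part in these values was not tested.

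Of 16 cytokines that activate JAK kinases 4 were measured, of which 3 were higher and 1 lower in the Foxo3 KO library, with a median log2 ratio of 0.16 and 0 called. Osm, the lower one, chosen after its values were seen, stood at 2.05 FPKM in the Foxo3 KO and 2.18 FPKM in the WT library. Il27, under the 1 FPKM minimum in both libraries, had the log2 ratio farthest from 0 of the 16, at 0.67. It stood at 0.899 FPKM in the Foxo3 KO and 0.190 FPKM in the WT library. Il15 stood at 12.2 FPKM in the Foxo3 KO and 10.8 FPKM in the WT library, and Lif, an IL-6 family cytokine whose signals SOCS3 restrains, at 5.32 FPKM in the Foxo3 KO and 4.56 FPKM in the WT library. The cytokine genes listed at 0 in both libraries numbered 4.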
